A study of Saccharomyces cerevisiae with 12 samples.

Results

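The 10 genes described here encode proteins of nitrogen uptake and its control in *Saccharomyces cerevisiae*. They are the ammonium permease genes *MEP1*, *MEP2* and *MEP3*, 3 permease genes for other nitrogen sources (*GAP1*, *DAL5* and *PUT4*) and 4 genes of GATA transcription factors (*GLN3*, *GAT1*, *DAL80* and *GZF3*). They were found by gene name among the 6775 genes of the deposited count tables, and all 10 passed the filter on low counts in every comparison. The genes were chosen by their measured levels and +Rap/-Rap ratios over the same 4 groups of samples, so their levels and fold changes are given as a description. Which of them pass the thresholds used for all genes is stated below, but is not read as a test of them. Tests are given for 47 other genes of nitrogen use, which is all that were found in the tables of 51 listed.

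RNA was sequenced from the Cyc8-AA strain, in which rapamycin takes Cyc8p, a subunit of the Tup1-Cyc8 co-repressor, out of the nucleus by anchor-away. The study asked how far the transcriptional response to Cyc8p loss is shaped by flocculation, and therefore depleted Cyc8p with and without mannose, a sugar that blocks flocculation. In the Flo+ Cyc8-AA experiment, 3 Cyc8p-depleted samples (+Rap) received rapamycin (1 µg/ml) in DMSO and 3 control samples (-Rap) received DMSO. In the Flo- Cyc8-AA experiment, 3 depleted samples (+Rap+Man) received rapamycin and 0.25 M mannose and 3 control samples (-Rap+Man) received DMSO and the same amount of mannose. Treatment lasted 4 h in YPD, and each culture had been divided between a depleted and a control sample, though the sources used here do not say that a shared replicate number marks a shared culture. All samples, controls included, are of one strain, built in HHY221: Mata, with the tor1-1 allele, a disrupted *FPR1* (fpr1::loxP-LEU2-loxP), an FKBP12 anchor on a ribosomal protein (RPL13A2xFKBP12::loxP) and Cyc8p fused to FRB (CYC8-FRB::HIS3). The Flo+ libraries were sequenced with paired-end reads and the Flo- libraries at another time with single-end reads, so that mannose, sequencing run and read type cannot be told apart between experiments.

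Totals ran between 26125728 and 51088194 counts per sample, and levels are given as normalised counts, the deposited raw counts brought to a common library size with TMM (trimmed mean of M-values). *FPR1*, which encodes the rapamycin receptor and is disrupted in this strain, had between 0 and 5 raw counts in every sample. *FLO11*, a flocculin gene, lay at 222542 to 326562 normalised counts in +Rap and 264 to 321 in -Rap samples, and at 275249 to 299076 in +Rap+Man and 186 to 286 in -Rap+Man samples, so that each library matched the rapamycin part of its label, while the mannose part was not checked by this gene. All 5 MATa marker genes had more than 3 raw counts in each sample, and their summed level was between 13378 and 115877 normalised counts, against 27.1 to 355 for the 3 MATalpha markers. The summed MATa markers were higher in the Flo- than in the Flo+ libraries, with the lowest Flo- sum at 55682 and the highest Flo+ sum at 35650 normalised counts. In -Rap+Man against -Rap samples only *MFA1* and *MFA2* of them were called (limma, log2 difference 3.33 and 3.72). *STE2*, *BAR1* and *AGA2* were at 0.78, 0.28 and 0.53. Of the MATalpha markers, *MFALPHA1* was called higher on depletion in Flo- (3.71). *MFALPHA2* was called lower in Flo- than in Flo+ libraries (-3.31 without and -3.55 with rapamycin). The 3 sporulation markers summed to 8338 to 9288 normalised counts in +Rap, against 1346 to 1565 in -Rap samples, and to 2155 to 3404 in +Rap+Man, against 328 to 407 in -Rap+Man samples. Of these 3 only *IME1*, the inducer of meiosis, was called on depletion (limma, log2 fold change 5.57 in Flo+ and 4.61 in Flo-), while *NDT80* was at -0.20 and 0.08 and *SPO11* at 0.20 and 0.47. Between experiments, *NDT80* was called lower in -Rap+Man against -Rap (-2.54) and in +Rap+Man against +Rap samples (-2.29), and *IME1* in the latter (-1.78). The part of these differences in the results for the 10 genes was not tested. Fewer cells of a type and less RNA per cell cannot be told apart in such bulk samples.

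Yeast takes up preferred nitrogen sources first and holds the genes for poorer ones down, which is known as nitrogen catabolite repression. The GATA activators Gln3 and Gat1 switch these genes on through GATA sequences upstream of them, the GATA repressors Dal80 and Gzf3 compete for the same sequences, and the cytoplasmic protein Ure2 holds Gln3 back when nitrogen is plentiful. In cells that respond to rapamycin, inhibition of the TORC1 kinase sends Gln3 into the nucleus and raises such genes. The anchor-away background has a disrupted *FPR1* and a resistant *TOR1* allele, but also holds the FKBP12 anchor on a ribosomal protein. The paper describes this background as insensitive to rapamycin. Every sample with rapamycin was also depleted of Cyc8p, so an effect of rapamycin itself on these genes was not tested. Mep2 is the ammonium permease of highest affinity and also signals ammonium shortage for filamentous growth.

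Because all these factors read GATA sequences, the 300 bases from -450 to -151 upstream of each start codon were searched in the S288c reference for GATAAG on either strand (its reverse complement is CTTATC, and neighbouring motifs that share a base were counted separately). The motif was present in 9 of the 10 genes, and 8 held at least 2, while 14.2% of all 6000 protein-coding nuclear genes held at least 1 in that window and 1.43% at least 2. Of the 47 other nitrogen genes, 25 held at least 1. *MEP2* and *GAT1* had 4 motifs each, *MEP3*, *GAP1*, *DAL5* and *DAL80* had 3, *MEP1* and *GZF3* had 2, *GLN3* had 1 and *PUT4* had 0, also when all 500 bases before the start codon were searched, a length in which 22.8% of all genes held at least 1. Windows are shown for the 3 ammonium permease genes, the activator gene *GAT1* and *PUT4*, the genes on which the results below turn, in RefSeq R64, 5′ to 3′ on the coding strand, with each GATAAG or CTTATC in capitals.
MEP1 (chrVII:733078-733377, minus strand): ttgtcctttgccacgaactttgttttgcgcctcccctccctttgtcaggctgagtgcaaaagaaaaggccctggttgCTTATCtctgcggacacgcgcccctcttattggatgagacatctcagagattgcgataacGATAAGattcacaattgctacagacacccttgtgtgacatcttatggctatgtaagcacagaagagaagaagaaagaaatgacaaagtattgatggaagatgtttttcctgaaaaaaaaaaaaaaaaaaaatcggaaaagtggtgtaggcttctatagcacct
MEP2 (chrXIV:357003-357302, plus strand): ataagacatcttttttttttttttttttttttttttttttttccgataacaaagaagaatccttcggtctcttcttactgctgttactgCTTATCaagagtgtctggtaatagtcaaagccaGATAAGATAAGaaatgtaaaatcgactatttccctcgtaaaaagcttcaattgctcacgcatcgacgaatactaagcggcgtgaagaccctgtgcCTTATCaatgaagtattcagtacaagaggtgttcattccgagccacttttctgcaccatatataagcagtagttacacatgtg
MEP3 (chrXVI:812604-812903, minus strand): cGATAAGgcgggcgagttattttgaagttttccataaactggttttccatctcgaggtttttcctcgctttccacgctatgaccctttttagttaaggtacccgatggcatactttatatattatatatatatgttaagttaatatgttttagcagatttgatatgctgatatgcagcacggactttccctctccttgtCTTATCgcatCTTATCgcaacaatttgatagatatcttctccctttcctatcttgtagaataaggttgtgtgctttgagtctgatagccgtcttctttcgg
GAT1 (chrVI:95516-95815, plus strand): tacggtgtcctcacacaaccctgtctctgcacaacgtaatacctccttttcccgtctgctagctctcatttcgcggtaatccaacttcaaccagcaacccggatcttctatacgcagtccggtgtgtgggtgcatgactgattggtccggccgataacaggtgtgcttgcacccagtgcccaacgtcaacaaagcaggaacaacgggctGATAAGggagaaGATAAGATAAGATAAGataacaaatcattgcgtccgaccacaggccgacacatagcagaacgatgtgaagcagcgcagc
PUT4 (chrXV:988933-989232, minus strand): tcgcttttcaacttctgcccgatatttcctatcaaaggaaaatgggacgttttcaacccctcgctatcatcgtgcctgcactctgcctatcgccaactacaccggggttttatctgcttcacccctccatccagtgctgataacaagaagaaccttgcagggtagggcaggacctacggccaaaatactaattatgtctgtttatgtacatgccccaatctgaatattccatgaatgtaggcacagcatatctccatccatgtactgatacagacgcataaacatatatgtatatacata
The *MEP2* window also overlaps YNL143C, a gene annotated on the opposite side, and no other annotated gene lay in the other 4 windows shown. Of the windows counted but not shown, those of *GLN3*, *DAL80* and *GZF3* overlap the annotated genes YER039C-A, YKR032W and *UTP10*. A match is a description of these letters and not of binding. Only GATAAG was counted, and shorter GATA stretches such as gataa, which the *PUT4* window also holds, were not.

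**Figure D1:**
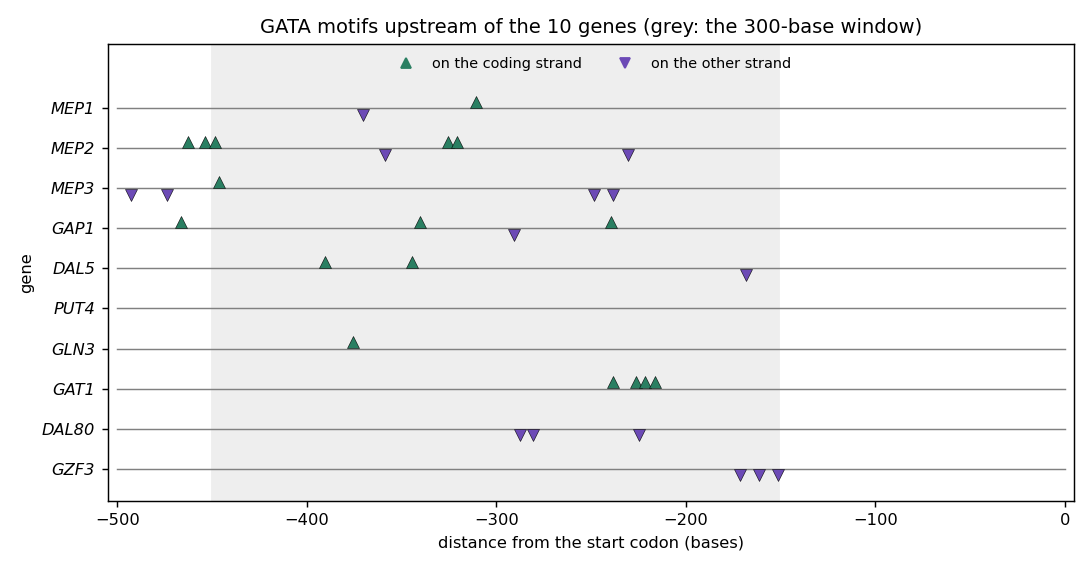
Positions of GATAAG and its reverse complement over the 500 bases upstream of the start codon of each of the 10 genes (horizontal axis: distance from the start codon in bases; upward triangles: coding strand; downward triangles: other strand; grey: the 300-base window). *MEP2* has 7 motifs over the 500 bases, the most of the 10 genes, and *PUT4* has 0.

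The ammonium permease genes did not move together on Cyc8p depletion. *MEP2* was lower in depleted cells of both experiments, *MEP1* overlapped its controls in Flo+ and was higher in Flo- depleted cells, and *MEP3* was lower in both. In the coding sequences of these genes and the other 7, no stretch of 50 bases occurs elsewhere in R64 without a mismatch, and no other annotated gene overlaps. Copies with mismatches were not searched for.

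*MEP2* (YNL142W, chrXIV:357453-358952) had 2580, 2791 and 2883 normalised counts in +Rap samples, against 17337, 20317 and 20302 in -Rap samples. Its log2 fold change was -2.81 (standard error, SE, 0.11), a 6.99-fold lower level. With mannose it had 3201, 2509 and 2633 normalised counts in +Rap+Man, against 11438, 8177 and 15162 in -Rap+Man samples, a log2 fold change of -1.99 (SE 0.21). Between same-numbered samples the depleted one had 0.137 to 0.149 of the control level in Flo+ and 0.174 to 0.307 in Flo-. Every depleted sample lay below every control sample in both experiments, and the depleted samples of the experiments overlapped in level while the -Rap+Man samples all lay below the -Rap samples.

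*MEP1* (YGR121C, chrVII:731449-732927), which encodes a permease of moderate affinity, had 6482, 6109 and 6258 normalised counts in +Rap, against 6568, 5845 and 8739 in -Rap samples. The groups overlapped, with a log2 fold change of -0.14 (SE 0.15, 95% interval -0.50 to 0.21). In the Flo- experiment it had 12272, 8786 and 10247 normalised counts in +Rap+Man, against 4321, 3001 and 4116 in -Rap+Man samples. Its log2 fold change there was 1.49 (SE 0.18), a 2.80-fold higher level, and all depleted samples were above all controls. In each of the 3 same-numbered pairs of the Flo- experiment the depleted sample had 2.49 to 2.93 times the level of the control sample. The difference in log2 ratios, Flo- minus Flo+, was 1.60 (SE 0.25), the largest of the 10 genes in size.

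That difference came from both sides: the +Rap+Man level of *MEP1* was above the +Rap level (log2 difference 0.72, SE 0.18) and the -Rap+Man level was below the -Rap level (log2 difference -0.88, SE 0.18). The samples did not overlap in either of these comparisons, in which mannose, run and read type cannot be told apart.

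*MEP3* (YPR138C, chrXVI:810984-812453) encodes the permease of low affinity. It ran from 1407 to 1583 normalised counts in +Rap, against 2320 to 2512 in -Rap samples, and from 1307 to 1446 in +Rap+Man, against 2298 to 3740 in -Rap+Man samples. Its log2 fold changes were -0.68 (SE 0.10) in Flo+ and -1.16 (SE 0.19) in Flo-, with no overlap of the groups in either.

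**Figure D2:**
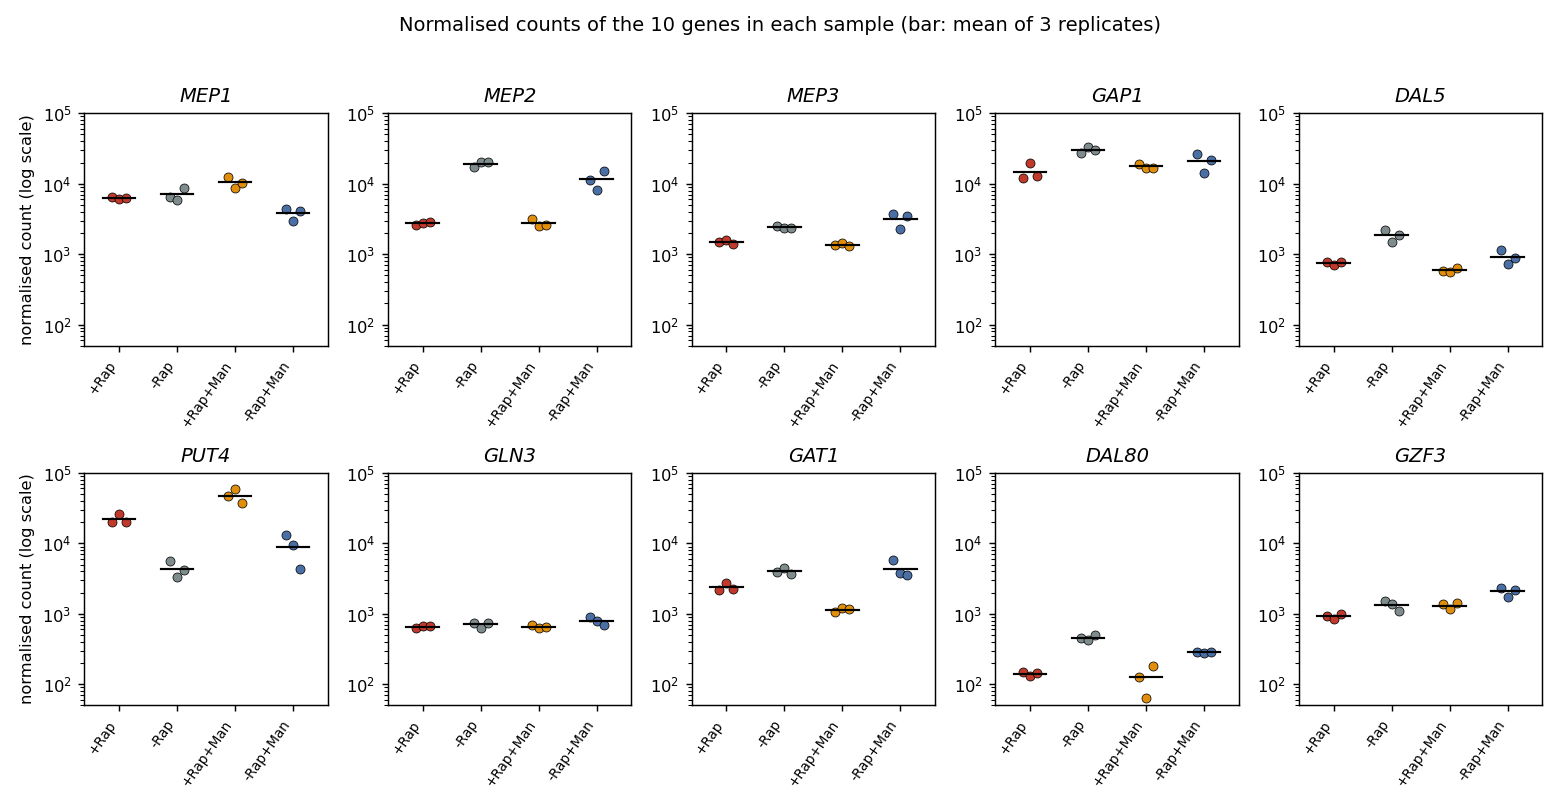
Normalised counts of each of the 10 genes in the 12 samples, on a log scale, by group (points: replicates; bars: mean of 3). *MEP2* lies at 2509 to 3201 in the 6 depleted samples and at 8177 to 20317 in the 6 control samples, while *PUT4* lies higher in the depleted samples of both experiments.

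Summed per kilobase of coding length, the 3 ammonium permease transcripts came to 7102 ± 31.0 normalised counts per kb in +Rap and 19284 ± 1690.2 in -Rap samples (SD, n = 3 each). In the Flo- experiment the sums were 9835 ± 1388 in +Rap+Man and 12456 ± 3144 in -Rap+Man samples (SD, n = 3 each), and those groups overlapped. *MEP2* made up 25.8% ± 1.52 of it in +Rap, against 66.8% ± 3.65 in -Rap samples, and 18.9% ± 0.562 in +Rap+Man, against 61.6% ± 4.22 in -Rap+Man samples. *MEP1* made up 59.8% ± 1.55 in +Rap, against 24.6% ± 3.69 in -Rap samples, and 71.6% ± 2.17 in +Rap+Man, against 21.0% ± 2.37 in -Rap+Man samples. In every depleted sample *MEP1* was the most abundant of the 3 per kb, and in every control sample *MEP2* was. *MEP3* held 14.4% ± 0.890 in +Rap, against 8.55% ± 0.997 in -Rap samples, but 9.57% ± 1.75 in +Rap+Man, against 17.4% ± 2.03 in -Rap+Man samples, so that its share was on opposite sides of the control in the 2 experiments. Shares of a sum are tied to each other, and these were not tested.

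**Figure D3:**
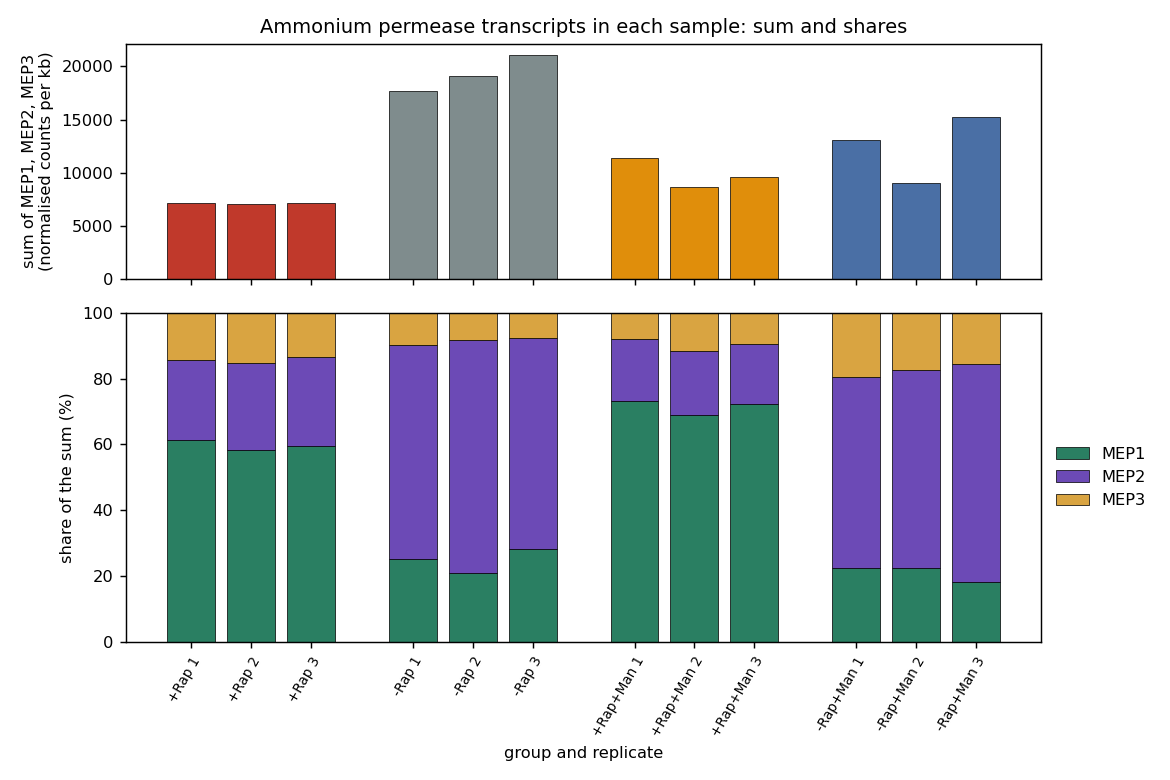
Upper panel: sum of *MEP1*, *MEP2* and *MEP3* in each sample (normalised counts per kb of coding length); lower panel: the share of each gene in that sum (%). *MEP1* holds 58.4% to 73.2% of the sum in the 6 depleted samples and 18.3% to 28.0% in the 6 control samples.

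Of the permeases for other nitrogen sources, *PUT4* was higher and *GAP1* and *DAL5* were lower in Flo+ depleted cells. *PUT4* (YOR348C, chrXV:986899-988782), which encodes the proline permease, had 20157, 26435 and 20352 normalised counts in +Rap, against 5658, 3349 and 4131 in -Rap samples. It had 47424, 58047 and 37381 in +Rap+Man, against 12910, 9560 and 4259 in -Rap+Man samples. The log2 fold changes were 2.37 (SE 0.20) in Flo+ and 2.57 (SE 0.37) in Flo-, and no depleted sample overlapped a control sample. The -Rap+Man samples were spread widely, and the ratio between same-numbered samples ran from 3.67 to 8.77 in Flo- and from 3.56 to 7.89 in Flo+.

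*GAP1* (YKR039W, chrXI:515063-516871) encodes the general amino acid permease. It had 11931, 19413 and 12668 normalised counts in +Rap, against 27488, 33354 and 29882 in -Rap samples, with a log2 fold change of -1.07 (SE 0.19). In the Flo- experiment the groups overlapped, with 19198, 16831 and 16879 in +Rap+Man, against 26313, 14221 and 21616 in -Rap+Man samples and a log2 fold change of -0.16 (SE 0.22, 95% interval -0.66 to 0.34). Replicate 2 was the highest of the +Rap samples and the lowest of the -Rap+Man samples for this gene, and leaving out each sample in turn gave -1.30 to -0.95 in Flo+, under the 2-fold threshold without -Rap replicate 2 or +Rap replicate 1 or 3, and -0.42 to 0.05 in Flo-.

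*DAL5* (YJR152W, chrX:719666-721297) encodes a permease for allantoate and ureidosuccinate and is a classical reporter of nitrogen catabolite repression. It had 772, 694 and 785 normalised counts in +Rap, against 2225, 1504 and 1855 in -Rap samples. In Flo- it had 574, 559.9 and 627 in +Rap+Man, against 1142, 737 and 887 in -Rap+Man samples. Its log2 fold changes were -1.29 (SE 0.15) in Flo+ and -0.60 (SE 0.18) in Flo-, and the depleted samples lay below the controls in both.

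The 2 GATA activator genes differed from each other. *GLN3* (YER040W, chrV:229795-231987) stayed between 628 and 891 normalised counts in all 12 samples, with log2 fold changes of -0.10 (SE 0.11) in Flo+ and -0.23 (SE 0.15) in Flo-. *GAT1* (YFL021W, chrVI:95966-97498) had 2170, 2705 and 2236 normalised counts in +Rap, against 3885, 4482 and 3617 in -Rap samples, a log2 fold change of -0.75 (SE 0.13). With mannose it had 1071, 1209 and 1163 in +Rap+Man, against 5718, 3748 and 3603 in -Rap+Man samples, a log2 fold change of -1.86 (SE 0.19) and a 3.64-fold lower level. *GAT1* is itself subject to nitrogen catabolite repression, unlike *GLN3*.

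The difference in log2 ratios of *GAT1*, Flo- minus Flo+, was -1.14 (SE 0.24), opposite in direction to that of *MEP1*. Here the 2 control groups overlapped (log2 difference 0.10, SE 0.17, -Rap+Man minus -Rap), and the depleted samples differed, with all +Rap+Man samples below all +Rap samples (log2 difference -1.04, SE 0.17). For *MEP2* the depleted groups differed by 0.01 (SE 0.19) on the log2 scale and the control groups by -0.78 (SE 0.19).

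The GATA repressor genes were both lower in depleted cells. *DAL80* (YKR034W, chrXI:506898-507707) had the fewest normalised counts of the 10, without regard to length, with 151, 129 and 144 normalised counts in +Rap, against 449, 425 and 499.9 in -Rap samples. In Flo- it had 128, 63.5 and 184 in +Rap+Man, against 289, 276 and 289.8 in -Rap+Man samples. The log2 fold changes were -1.68 (SE 0.13) in Flo+ and -1.27 (SE 0.33) in Flo-. The larger error in Flo- came with the spread of the +Rap+Man samples, and leaving out each sample in turn gave -1.63 to -0.88 there, the last without +Rap+Man replicate 2. *GZF3* (YJL110C, chrX:209922-211577) ran from 849.9 to 994 normalised counts in +Rap, against 1112 to 1531 in -Rap samples, and from 1161 to 1404 in +Rap+Man, against 1732 to 2347 in -Rap+Man samples. Its log2 fold changes were -0.51 (SE 0.14) in Flo+ and -0.64 (SE 0.16) in Flo-, and the depleted samples lay below the controls in both.

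**Figure D4:**
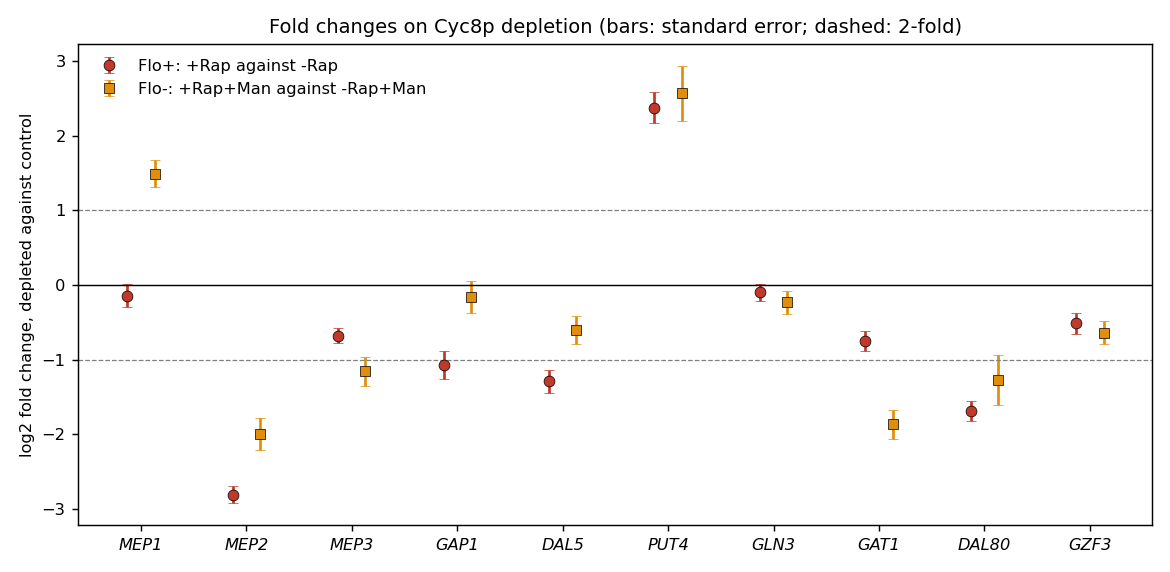
Log2 fold change of each of the 10 genes on Cyc8p depletion in the Flo+ (circles) and Flo- (squares) experiments (bars: standard error; dashed lines: 2-fold). *PUT4* lies above 2 in both, *MEP2* near or below -2 in both, and *MEP1* and *GAT1* are the genes whose 2 values lie farthest apart.

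The thresholds used within each experiment were an adjusted p (limma, Benjamini-Hochberg) of at most 0.01 and a change of at least 1 on the log2 scale in either direction. In Flo+, 1 of the 10 genes was past them as higher (*PUT4*) and 4 as lower (*MEP2*, *DAL80*, *DAL5* and *GAP1*), where 11.0% of the 6100 genes tested were higher and 2.08% lower. In Flo-, 2 were past them as higher (*PUT4* and *MEP1*) and 3 as lower (*MEP2*, *GAT1* and *MEP3*), where 14.8% of the 6325 genes tested were higher and 2.59% lower. With the replicate block, voom weights, the authors' normalised counts or a joint fit, 4 rather than 3 were lower in Flo-. For the difference in ratios, *MEP1* was past them as higher and *GAT1* as lower, where 2.61% of the 6403 genes tested were higher and 1.16% lower. *GAT1* missed the thresholds for that difference in 11 of the 12 fits that left out a sample and under RLE scaling. Nothing is read from these counts, since the contrasts they come from chose the genes. The median log2 fold change over the 10 genes was -0.72 in Flo+ and -0.62 in Flo-, beside -0.02 and -0.04 over all genes tested.

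Set side by side with mannose as the difference and an adjusted p of at most 0.05, *DAL5* was past the thresholds as lower in -Rap+Man against -Rap samples (log2 difference -1.02, SE 0.17), where 11.7% of all genes tested were higher and 11.3% lower. In +Rap+Man against +Rap samples, *PUT4* was past them as higher (log2 difference 1.08, SE 0.33) and *GAT1* as lower, where 16.1% of all genes tested were higher and 13.1% lower. Without -Rap replicate 1 or -Rap+Man replicate 2, *DAL5* was at -0.88 and -0.87, and without -Rap+Man replicate 3 it missed the threshold of 1 by less than 0.01. Without +Rap+Man replicate 2, *PUT4* was at 0.93, and without +Rap replicate 2 or +Rap+Man replicate 1, *GAT1* was at -0.94 and -0.99. *GZF3* was above in both of these comparisons, at 0.65 (SE 0.15) without and 0.49 (SE 0.15) with rapamycin, and its samples did not overlap. Nothing is read from these calls either, since levels over the same groups chose the genes.

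By level per kb of coding length, the order of the 10 genes differed between depleted and control cells. In +Rap samples *PUT4* was first at 11844 normalised counts per kb, followed by *GAP1* at 8109.8 and *MEP1* at 4248, and *DAL80* was last at 174. In -Rap samples *GAP1* was first at 16717, followed by *MEP2* at 12879 and *MEP1* at 4767, and *GLN3* was last at 321. In +Rap the neighbours *PUT4* and *GAP1*, and *MEP2* and *GAT1*, overlapped between replicates, and in -Rap this held for *GAT1* and *PUT4* and for *DAL5* and *GZF3*. In +Rap+Man samples *PUT4* was again first, at 25275 normalised counts per kb, ahead of *GAP1* at 9749 and *MEP1* at 7055, and of the neighbours only *GZF3* and *GAT1* overlapped. In -Rap+Man samples the order was less settled: *GAP1* at 11452, *MEP2* at 7728, *PUT4* at 4729, *GAT1* at 2842 and *MEP1* at 2578 each overlapped the next, with *MEP3* at 2150.3 after them, and the last pair, *GLN3* and *DAL80*, overlapped too.

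That spread had a pattern over libraries. Of the -Rap+Man samples, replicate 2 was the lowest for 7 of the 10 genes and replicate 1 the highest for 8, and of the +Rap+Man samples replicate 2 was the lowest for 7. In the Flo+ experiment no replicate was the lowest for more than 6 or the highest for more than 5. Without -Rap+Man replicate 2 the log2 fold change of *MEP3* in Flo- was -1.38, and without -Rap+Man replicate 1 that of *GAT1* was -1.63.

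The genes with the most similar pattern were found by Pearson correlation of log2 levels over the 12 samples, which share 4 group means, so the values describe these samples only. For *MEP2* they were *YHB1* (flavohaemoglobin, r = 0.98), *ALD5* (an aldehyde dehydrogenase, r = 0.97) and *GLN1* (glutamine synthetase, which joins ammonium to glutamate, r = 0.97). For *MEP1* they were *APE3* (a vacuolar aminopeptidase, r = 0.98), *TDA3* (r = 0.95) and *WBP1* (a subunit of oligosaccharyltransferase, r = 0.94). For *GAT1* they were *DSE2* (a daughter-cell wall protein, r = 0.98), *CET1* (an mRNA capping enzyme, r = 0.98) and *PRY3* (a cell wall protein, r = 0.98). *DSE2* had 13393 ± 3153 normalised counts in +Rap and 29718 ± 2213 in -Rap samples, and 6364 ± 507 in +Rap+Man and 30466 ± 8023 in -Rap+Man samples (SD, n = 3 each).

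The 47 other nitrogen genes were taken by role, though with earlier results of these data known, and their tests are given with that limit. In the Flo+ experiment 5 of them were upregulated and 3 downregulated, where 11.0% of all genes tested were higher and 2.08% lower. In the Flo- experiment 6 were upregulated and 4 downregulated, where 14.8% were higher and 2.59% lower. The upregulated counts were near these shares and are not read as a result. The same shares stand beside the counts of each list below. Their median log2 fold change was -0.20 in Flo+ and -0.26 in Flo-, beside -0.02 and -0.04 over all genes tested.

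Ammonium assimilation changed in both directions. *GLN1* was downregulated, with 15040.0 ± 1805 normalised counts in +Rap and 38125 ± 3729 in -Rap samples (SD, n = 3 each), a log2 fold change of -1.34 (SE 0.13, adjusted p = 0.000159 from limma). It was also downregulated in Flo-, by a log2 fold change of -1.14 (SE 0.18, adjusted p = 0.0007 from limma). *GLT1*, glutamate synthase, was downregulated in Flo- (log2 fold change -1.03, adjusted p = 0.000227 from limma) and was not called in Flo+, at -0.58 (adjusted p = 0.0362 from limma). Of the NADP-dependent glutamate dehydrogenase genes, *GDH3* was upregulated in both experiments and *GDH1* in Flo-. *GDH3* had 2357 ± 272 normalised counts in +Rap and 925 ± 90.9 in -Rap samples, and 2378 ± 122 in +Rap+Man and 361 ± 20.3 in -Rap+Man samples (SD, n = 3 each). Its log2 fold changes were 1.35 (adjusted p = 0.000132) and 2.74 (adjusted p = 2.2e-07 from limma), and their difference of 1.37 (SE 0.17) passed the test at an adjusted p of 0.000344. *GDH1* had a log2 fold change of 1.12 in Flo- (adjusted p = 0.000705 from limma) and was not called in Flo+, at 0.72. Of the 5 genes of this list, 1 rose and 1 fell in Flo+, and 2 rose and 2 fell in Flo-.

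Among the 10 genes of allantoin and urea use, 3 rose and 1 fell in Flo+, and 2 rose and 2 fell in Flo-. The genes for urea went up in both experiments. *DUR3*, the urea permease, had log2 fold changes of 2.37 (SE 0.24, adjusted p = 0.000178 from limma) in Flo+ and 1.88 (SE 0.25, adjusted p = 0.000288 from limma) in Flo-. *DUR1,2*, urea amidolyase, had 1.17 (adjusted p = 0.000288) and 2.30 (adjusted p = 8.17e-06 from limma). The allantoin permease gene *DAL4* rose in Flo+ by a log2 fold change of 1.05 (adjusted p = 0.0011 from limma) and was just under the threshold in Flo-, at 0.98 (adjusted p = 0.003 from limma). *DAL3*, ureidoglycolate lyase, fell in Flo+ by 1.32 on the log2 scale (adjusted p = 0.000972 from limma) and was at -0.87 in Flo- (adjusted p = 0.0334 from limma). In Flo-, *DCG1* fell by 1.48 (adjusted p = 0.00013 from limma) and *DAL81*, a positive regulator of allantoin and GABA genes, by 1.06 on the log2 scale (adjusted p = 0.000527 from limma). They were at -0.93 and -0.52 in Flo+, and none of these 4 genes passed the test of the difference in ratios (adjusted p from limma 0.0705 to 0.835).

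In the list of proline, GABA, arginine and asparagine use, 1 of the 10 genes found rose in Flo+ and 2 rose in Flo-. By limma 0 were called lower in either, also with voom weights. At an unadjusted p under 0.05, 3 in Flo+ and 1 in Flo- were lower. *UGA4* in Flo+ (log2 fold change -0.58, adjusted p = 0.0082 from limma) and *PUT2* in Flo- (-0.81, adjusted p = 0.00241 from limma) missed only the threshold on fold change. *CAR2*, ornithine transaminase, had log2 fold changes of 1.65 (SE 0.25, adjusted p = 0.00145 from limma) in Flo+ and 2.80 (SE 0.29, adjusted p = 6.44e-05 from limma) in Flo-. *UGA2*, succinate semialdehyde dehydrogenase, had 0.66 (adjusted p = 0.0464) in Flo+ and 1.73 (adjusted p = 1.82e-05 from limma) in Flo-. *PUT1* and *PUT2*, the enzymes that degrade the proline taken up by Put4, were not called in either experiment, with log2 fold changes of -0.40 and -0.37 in Flo+ and of -0.38 and -0.81 in Flo-.

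Of the 13 genes of signalling and permease control, *PAR32*, whose product restrains Mep1 and Mep3, fell in Flo+, with a log2 fold change of -1.09 (SE 0.17, adjusted p = 0.0019 from limma). It was at -0.87 (adjusted p = 0.00124) in Flo-, where 0 of the 13 were past the threshold on fold change, also with voom weights, although 9 were lower at an unadjusted p under 0.05, all 13 estimates were below 0 and 7 had an adjusted p of at most 0.01 from limma. *NPR1*, the kinase that keeps ammonium permeases active, was at -0.18 (SE 0.10) and -0.12 (SE 0.13), and *URE2* at -0.41 (adjusted p = 0.0145) and -0.66 (adjusted p = 0.00168 from limma). Of the 9 other transporters and hydrolases, 0 were called in either experiment by limma, also with voom weights. At an unadjusted p under 0.05 there were 1 higher and 3 lower in Flo+ and 3 higher and 1 lower in Flo-. An adjusted p of at most 0.01 from limma was reached by 3 in Flo+ and 2 in Flo-, all short of the threshold on fold change. *AVT4* was lower in both (log2 fold change -0.81 and -0.55) and *ECM38* higher in both (0.66 and 0.74), while *AGP1* was lower in Flo+ (-0.68).

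Some of these calls rested on single samples. In Flo+, *PAR32* missed a threshold without -Rap replicate 3 (log2 fold change -0.89) and without +Rap replicate 1, 2 or 3 (adjusted p from limma 0.0102, 0.0127 and 0.0101), *DAL4* without -Rap replicate 1 (0.98) or +Rap replicate 2 (0.95), and *CAR2* without +Rap replicate 2 (adjusted p = 0.0119 from limma). In Flo-, *GLT1* was at -0.98 without -Rap+Man replicate 3 and at -0.99 under RLE scaling, *DAL81* at -0.94 without -Rap+Man replicate 1, and *GDH1* just under the threshold of 1 without +Rap+Man replicate 2. Under at least 1 alternative, 2 further genes in Flo+ (*DAL7* and *DCG1*) and 4 in Flo- (*DAL3*, *DAL4*, *DAL7* and *NPR3*) passed the thresholds.

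**Figure D5:**
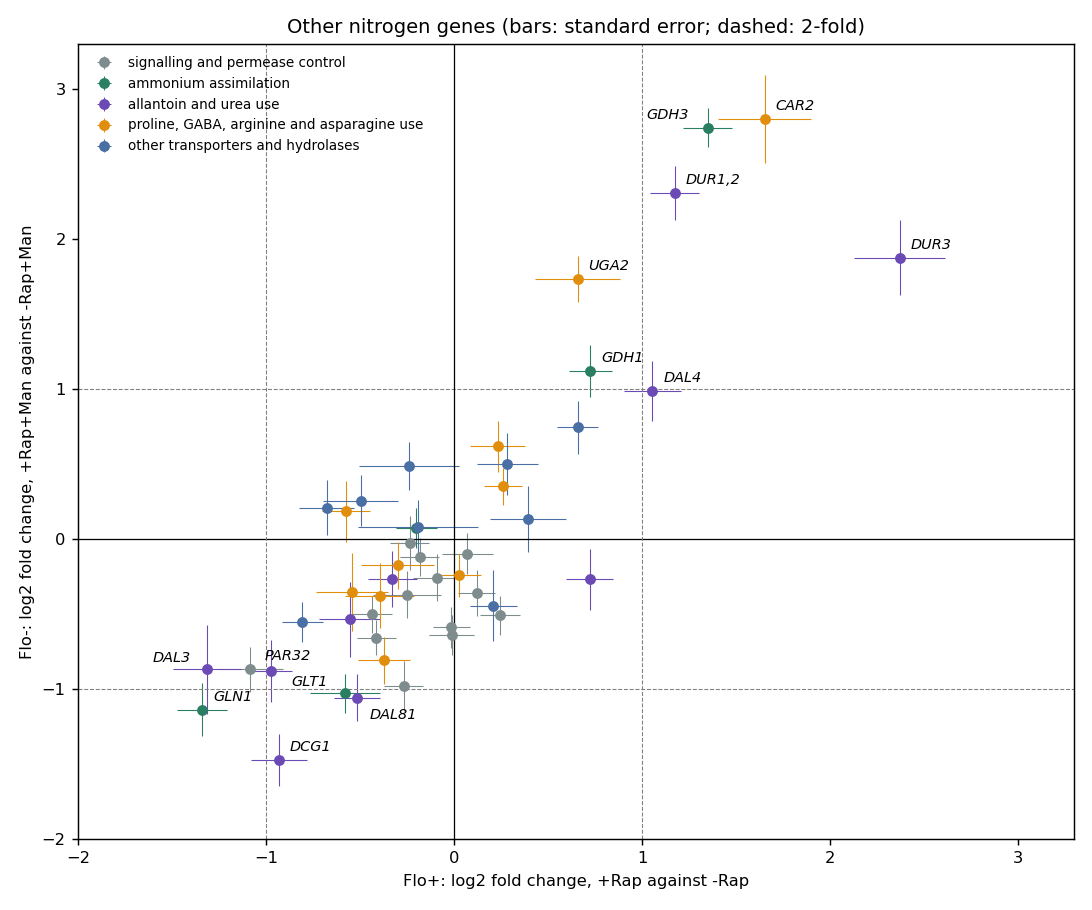
Log2 fold changes of the 47 other nitrogen genes on Cyc8p depletion in Flo+ (horizontal) and Flo- (vertical), coloured by list (bars: standard error; dashed lines: 2-fold; names: genes called in at least 1 experiment). *GDH3*, *DUR1,2*, *DUR3* and *CAR2* lie above 1 in both experiments and *GLN1* lies below -1 in both.

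Between experiments, 2 of the 47 genes passed the test of the difference in ratios, *GDH3* and *DUR1,2*, both with the larger increase in Flo-. In the other direction 0 passed (limma, also with voom weights), with 10 at an unadjusted p under 0.05. Of those, *BUL1* had an adjusted p of 0.00661 from limma and a difference of -0.78, short of the threshold on fold change. *DUR1,2* differed by 1.10 (SE 0.22, adjusted p = 0.00751 from limma), and the call was lost in 10 of the 12 fits that left out a sample, with adjusted p up to 0.0245. *UGA2* differed by 1.05 with an adjusted p of 0.0332 from limma and was not called, though it passed with the replicate block (adjusted p = 0.00837 from limma). In the comparisons over mannose, 1 of the 47 was higher and 12 lower in -Rap+Man against -Rap samples, and 2 were higher and 9 lower in +Rap+Man against +Rap samples, beside the background shares above. The lower genes without rapamycin included 5 of the 9 other transporters and hydrolases and 4 of the 10 genes of proline, GABA, arginine and asparagine use, and with rapamycin 4 and 1 of these lists.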

How the data were processed

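RNA was rRNA-depleted and sequenced with strand-specific libraries in 12 samples. The authors trimmed reads with fastp 0.20.0 and aligned them with STAR 2.7.3 to the S288c genome from ENSEMBL; the counting tool and annotation release are not given in the sources used here. The authors deposited raw counts per gene and the same counts normalised with DESeq2, whose fold-change and adjusted p columns were not used. Deposited numbers carry digit separators, which were removed. Tests were run on log2 values with limma 3.58.1 (R 4.3.3), and no count model was run.

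A gene entered a fit when 3 or more samples held 10 counts, rescaled to the median library, and all samples together held 15. Counts were scaled by TMM factors, 2 counts were added before log2, and models were fitted with lmFit and eBayes with a trend, on the 6 samples of an experiment or on all 12 between experiments. Benjamini-Hochberg adjustment ran over all genes tested. Fits were tested on simulated data. The 10 genes and all lists were chosen with earlier results of these data known. Other genes named are list genes past the thresholds, up to 6 in each direction, and checks of the strain and of cell type. The 3 most similar genes for *MEP1*, *MEP2* and *GAT1* are named too. *NPR1*, *URE2*, *PUT1*, *PUT2*, *UGA4*, *AVT4*, *ECM38*, *AGP1*, *BUL1* and, outside the Flo- comparison, *UGA2* were added after their values were seen. So were the genes named as called in an alternative alone.

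Each culture was divided between a depleted and a control sample, but the sources used here do not say that the replicate number marks the culture. The correlation of deviations from group means of same-numbered samples was 0.44, 0.17 and 0.20 in Flo-, high enough to take the numbers as pairs there. The main fits still used no pairing in either experiment, so their errors and p-values ignore it. An alternative fit used the number as a replicate block. Chi-square per gene between replicates of a group ran from 33.0 to 341, above counting error. Alternatives were another scaling (RLE), no filter, 0.5 counts added, voom weights, the authors' normalised counts, a joint fit and leaving out each sample. Of the 6775 genes, 6216 were found in R64 by systematic name; coordinates, lengths and sequences are from RefSeq R64, as the deposited tables hold none.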

Additional observations from a re-analysis of the deposited data

Results flagged for a closer look

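*GDH3* and *DUR1,2* are listed because the test of the difference in ratios between the experiments passed for them among the 47 other nitrogen genes. *GDH3* had a difference of 1.37 on the log2 scale, Flo- minus Flo+, from log2 fold changes of 2.74 in Flo- and 1.35 in Flo+. Its depleted groups were at 2378 ± 122 normalised counts in +Rap+Man and 2357 ± 272 in +Rap samples, and its control groups at 361 ± 20.3 in -Rap+Man and 925 ± 90.9 in -Rap samples (SD, n = 3 each). *DUR1,2* had a difference of 1.1 on the log2 scale, with 12776 ± 325 normalised counts in +Rap+Man and 14042 ± 919 in +Rap samples, and 2689 ± 674 in -Rap+Man and 6266 ± 828 in -Rap samples (SD, n = 3 each). Mannose, sequencing run and read type differ together between the experiments and cannot be told apart.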

How the results depend on the processing

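Under the other scaling, filter, added count, weights, normalised counts and joint fit, every count of genes called over all genes stayed within 1.5 times its reported value, and no fold change of the 10 genes that was past the thresholds turned its sign. Leaving out each sample in turn gave 497 to 752 genes higher and 71 to 242 lower in Flo+, and 795 to 964 higher and 141 to 191 lower in Flo-. It gave 107 to 184 higher and 26 to 89 lower for the difference in ratios, 695 to 825 higher and 667 to 759 lower for mannose without rapamycin, and 975 to 1034 higher and 799 to 884 lower for mannose with it. The count lower in Flo+ was 242 without -Rap replicate 3, and 71 to 73 without -Rap replicate 2 or +Rap replicate 2 or 3. With the replicate block, 710 genes were higher and 145 lower in Flo+, 978 higher and 168 lower in Flo-, and 223 higher and 94 lower for the difference in ratios. The block gave *UGA2* an adjusted p of 0.00837 from limma for the difference in ratios and changed no other call of the 47 other nitrogen genes. In Flo+ the correlations of same-numbered samples were 0.14, 0.096 and 0.16. Their mean was 0.135, against -0.0678 for unlike numbers, and every sample of both experiments correlated best with its own number. The numbers may thus mark pairs in Flo+ too, which the main errors and p-values ignore. The difference in ratios of *GAT1* stayed between -1.26 and -0.92 over all alternatives. Another scaling moved the median of all genes by at most 0.053 on the log2 scale.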
